A study of Arabidopsis thaliana with 16 samples.

Results

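The shoot transcriptome of the uninduced rga line was compared with that of the vector line under gibberellin alone, on 3 arrays of rga shoots and 2 arrays of vector shoots. These are 5 of the 16 arrays of an Arabidopsis thaliana study, chosen by their labels as all arrays sampled at 4 h without dexamethasone (DEX), and all 22746 probe sets other than the array's controls were members. The rga line carries a DEX-inducible construct for rga-delta17, a dominant DELLA protein that gibberellin does not remove. The vector line carries the construct's vector without that transgene. The plants were 8-day-old Ler seedlings grown in continuous light at 22 °C on medium with 2% sucrose. All of them, in both lines, were sprayed with 2 µM GA4, a bioactive gibberellin, 16 h before the experiment and again at its start, and shoots were cut 4 h later. The other 11 arrays were the rga line at 2 h under GA4 (3 arrays), the rga line under GA4 plus 10 µM DEX at 2 h and at 4 h (3 arrays each), and the vector line under GA4 plus DEX at 4 h (2 arrays). The labels give 1 line of each genotype and do not name the promoter of the construct or a second insertion, so the transgene, its place of insertion and any other difference between the lines or their handling cannot be told apart. The labels call the samples replicates but do not say that they were separate cultures, and p-values then measure only the spread between these samples.

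DELLA proteins are nuclear repressors of gibberellin responses. Gibberellin binds a GID1 receptor, the complex holds the DELLA, and an F-box protein such as SLY1 hands it over for degradation, which releases growth. Several genes of gibberellin synthesis and perception are known to be raised by DELLAs, and DELLAs also act on anthocyanin accumulation, on defence signalling and on light and stress responses. The comparison asks which transcripts already differed between the lines before rga-delta17 was induced, with gibberellin supplied to both. The transgene's own transcript was not analysed here.

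Each value below is a signal in array units, deposited on a scale on which the trimmed mean of every array is 500.05. A difference is the mean log2 signal of the rga arrays minus that of the vector arrays, after signals below 8 were raised to 8, and a call is an adjusted p below 0.05 in limma's moderated test with Benjamini-Hochberg adjustment over 22746 probe sets, fitted on all 16 arrays. Of these probe sets, 1770 were higher in the rga line (7.78%) and 893 were lower (3.93%), 2663 in all (11.7%). At an unadjusted p below 0.05 the counts were 4255 and 2137. A rise of at least 2-fold was called for 856 probe sets and a fall of at least 2-fold for 257. The rga arrays lay wholly above the vector arrays at 28.7% of all probe sets and wholly below them at 15.2%. All 893 lower calls and 1769 of the 1770 higher calls were among these, so a lack of overlap adds no support to a call. These are tissue extracts, in which fewer cells of a type and less RNA per cell cannot be told apart.

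The excess of higher calls was largest among dim probe sets and moved with the scaling. The median difference over all probe sets was 0.11 on the log2 scale of the deposited signals, 0.02 once arrays were quantile normalized and -0.04 once they were centred on their medians. Of the calls, 66.5% were higher in the rga line on the deposited scale. After quantile normalization 53.2% were, with 927 higher (4.08%) and 817 lower (3.59%). After median centring 35.5% were, with 1042 higher (4.58%) and 1890 lower (8.31%). The 22746 probe sets were cut into 4 bins of equal size by their geometric mean signal over all arrays. In the second bin, from 38.6 to 174 units, 769 probe sets rose and 52 fell, and the median signal was 108, 103 and 94.1 on the rga arrays against 76.9 and 72.9 on the vector arrays. In the third bin, from 174 to 526 units, 501 were higher and 272 lower. In the brightest bin, 347 were higher and 494 lower, and the median difference was -0.01. Of the 1770 higher calls, 884 had a mean signal under 100 on the vector arrays. When the dimmer 50% of probe sets were left out, 975 of 11373 were higher (8.57%) and 913 were lower (8.03%).

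**Figure D1:**
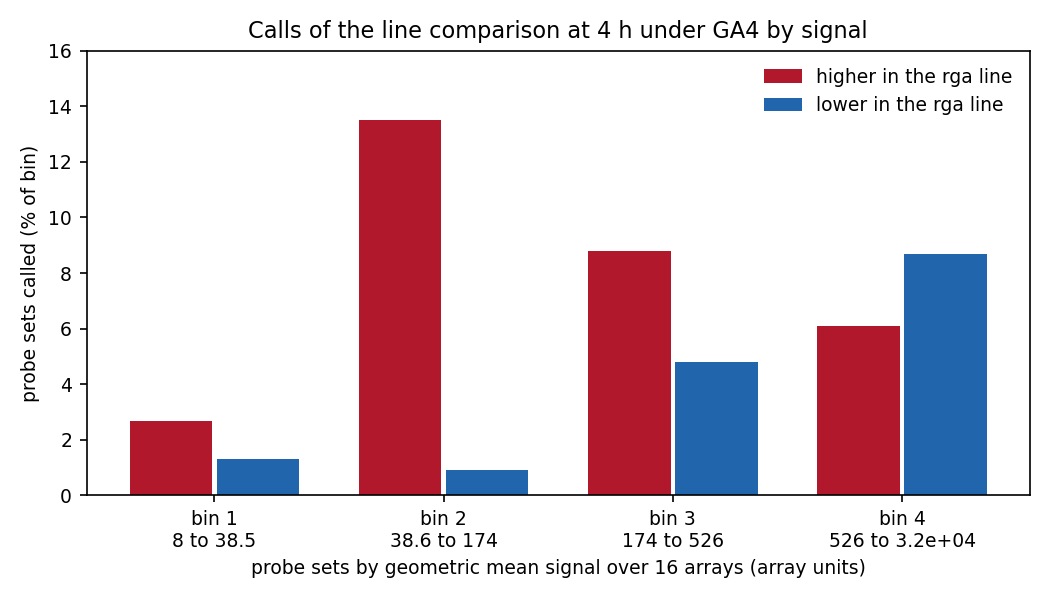
The bars give the percentage of probe sets in each of 4 signal bins that were called higher (red) or lower (blue) in the rga line at 4 h under GA4; bins run from dim to bright by geometric mean signal over 16 arrays. In bin 2, 769 probe sets were higher and 52 lower, and in bin 4, 347 were higher and 494 lower.

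Measures of the arrays themselves also separated the lines. Signals below 8 made up 8.22%, 8.59% and 10.8% of the rga arrays and 12.5% and 13.4% of the vector arrays. The 10th percentile of signal was 10.1, 9.46 and 7.13 units on the rga arrays and 5.35 and 4.69 on the vector arrays. The ratio of the 3′ to the 5′ actin control probe set, which rises with shorter RNA or cDNA, was 10.5, 10.0 and 9.23 on the rga arrays and 16.6 and 14.9 on the vector arrays, and over the whole series it ran from 7.98 to 11.4 on 12 rga arrays and from 12.8 to 16.6 on 4 vector arrays. The same ratio of the other controls overlapped between the lines: 0.686 to 0.874 on the rga arrays and 0.757 to 0.829 on the vector arrays for GAPDH, and 1.17 to 1.52 against 1.32 to 1.37 for ubiquitin. Over all probe sets the rga arrays correlated with each other at 0.959 to 0.963 and the vector arrays at 0.974; the third rga array correlated with the vector arrays at 0.959 and 0.962, and the first at 0.938 and 0.940. The part of these array measures in the results below was not tested. RCA, the Rubisco activase of green tissue, stood at 16738 to 23392 units on the rga arrays and at 19580 and 21554 on the vector arrays. The 2 shoot markers tested and the 3 root markers tested gave no call. EXPA7, of root hairs, stood at 50.8 to 120 units in the rga line and at 31.4 and 24.4 in the vector line, EXPA18 at 117 to 173 against 95.9 and 50.5, and PYK10 at 6003 to 6947 against 7099 and 6870. The median difference was 0.99 for the root markers and -0.13 for the shoot markers, beside 0.11 over all probe sets.

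**Figure D2:**
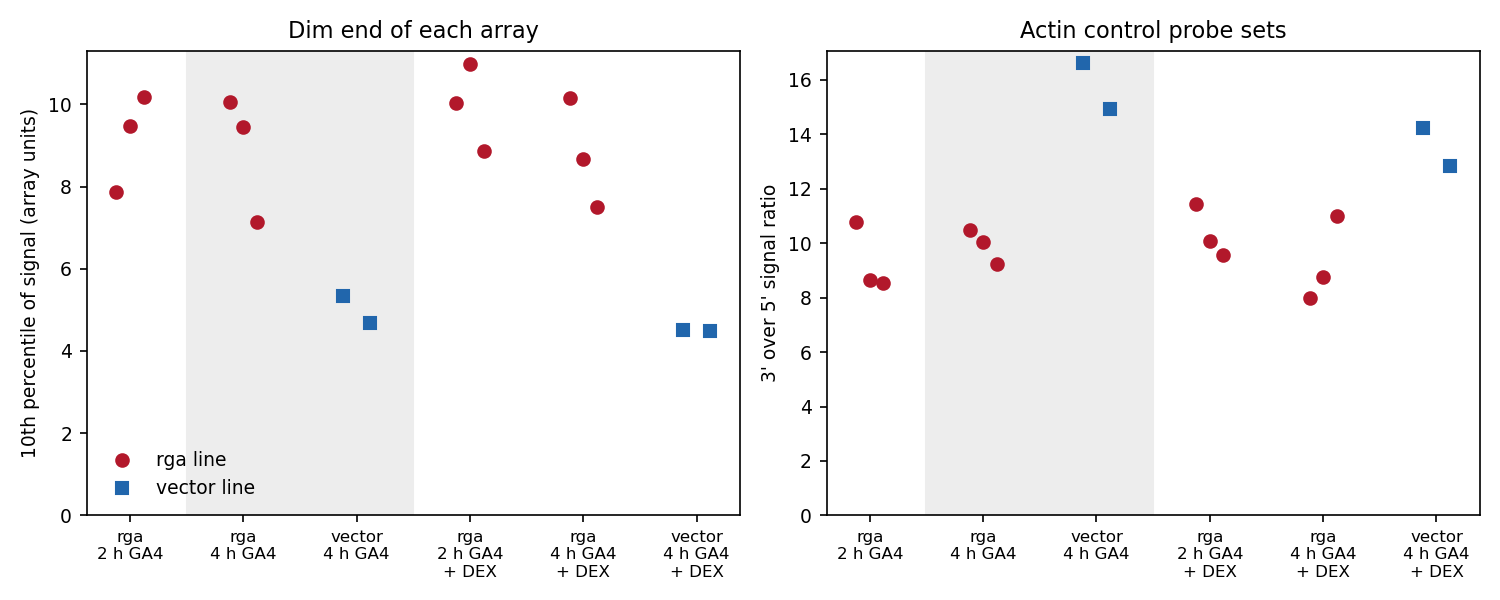
Left, the 10th percentile of signal of each of the 16 arrays in array units; right, the ratio of the 3′ to the 5′ actin control probe set. Each point is 1 array, red circles are the rga line, blue squares the vector line, and the shaded pair is the comparison at 4 h under GA4; the vector arrays have 10th percentiles of 5.35 and 4.69 and actin ratios of 16.6 and 14.9 there, outside the range of the rga arrays.

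Some of the brighter falls in the rga line were of genes with known roles in immunity or rapid stress signalling. Immune genes were not counted as a whole here, so these falls give no direction for them as a set. Of the 3 genes of a salicylic acid and defence list that were tested, WRKY53 was called lower and PDF1.2 and GRX480 were not called; the list's median difference was -0.43, beside 0.11 over all probe sets, of which 3.93% were called lower. WRKY53, a transcription factor of defence and leaf senescence, had 229, 270 and 304 units in the rga line, against 1023 and 895 in the vector line. It was 3.60-fold lower (log2 difference -1.85, SE 0.29, limma adjusted p = 0.00366), and every rga array lay below both vector arrays. Of the 3 tested genes of a touch and rapid stress list (median -0.06), 1 was called: STZ, a zinc-finger repressor induced by cold, salt and oxidative stress, had 1073, 1403 and 1128 units in the rga line, against 3181 and 3028 in the vector line. It was 2.60-fold lower (log2 difference -1.38, SE 0.21, adjusted p = 0.00349 by limma). CML38 and CML37, calmodulin-like proteins of the same list, overlapped between the lines, with differences of -0.06 and 0.05.

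Other immune regulators were picked out after their values were seen, apart from AT2G22880, which is among the 15 largest falls. Of 9 genes with a PUB symbol, which encode U-box ubiquitin ligases, 3 were called lower, 1 higher and 5 not called. PUB22 and PUB23 are related ubiquitin ligases that damp the response to microbial patterns. PUB23 had 214, 198 and 234 units in the rga line, against 698 and 805 in the vector line (log2 difference -1.80, SE 0.23, limma adjusted p = 0.00123). PUB22 had 256, 314 and 235 units, against 730 and 722 (-1.45, SE 0.25, limma adjusted p = 0.00541). Neither pair of groups overlapped. PUB24, a close relative that acts with them, had 141 to 253 units in the rga line, against 244 and 269 in the vector line, with overlap and no call (-0.44, limma adjusted p = 0.272). PUB43 was also lower (-0.94, limma adjusted p = 0.0275; call lost without the first rga array or either vector array), and PUB15, dim in both lines, was higher (2.60, limma adjusted p = 0.00872; call lost without the second vector array). BIK1, a kinase that relays signals from pattern receptors, had 832, 887 and 884 units in the rga line, against 1559 and 1498 in the vector line, and was 1.76-fold lower (adjusted p = 0.00169 by limma). AT5G39580, a secreted peroxidase, had 349, 412 and 466 units, against 1596 and 1584 (log2 difference -1.97, SE 0.28). AT2G22880, which encodes a VQ-motif protein, had 104, 69.3 and 155 units in the rga line, against 791 and 836 in the vector line, a 7.83-fold difference (adjusted p = 0.000837 by limma). WRKY6, a factor of senescence and phosphate responses, had 112, 235 and 157 units, against 559 and 391; its call was lost without the first vector array. Of 6 genes with a WRKY symbol, 2 were called lower and none higher, beside 3.93% and 7.78% of all probe sets.

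**Figure D3:**
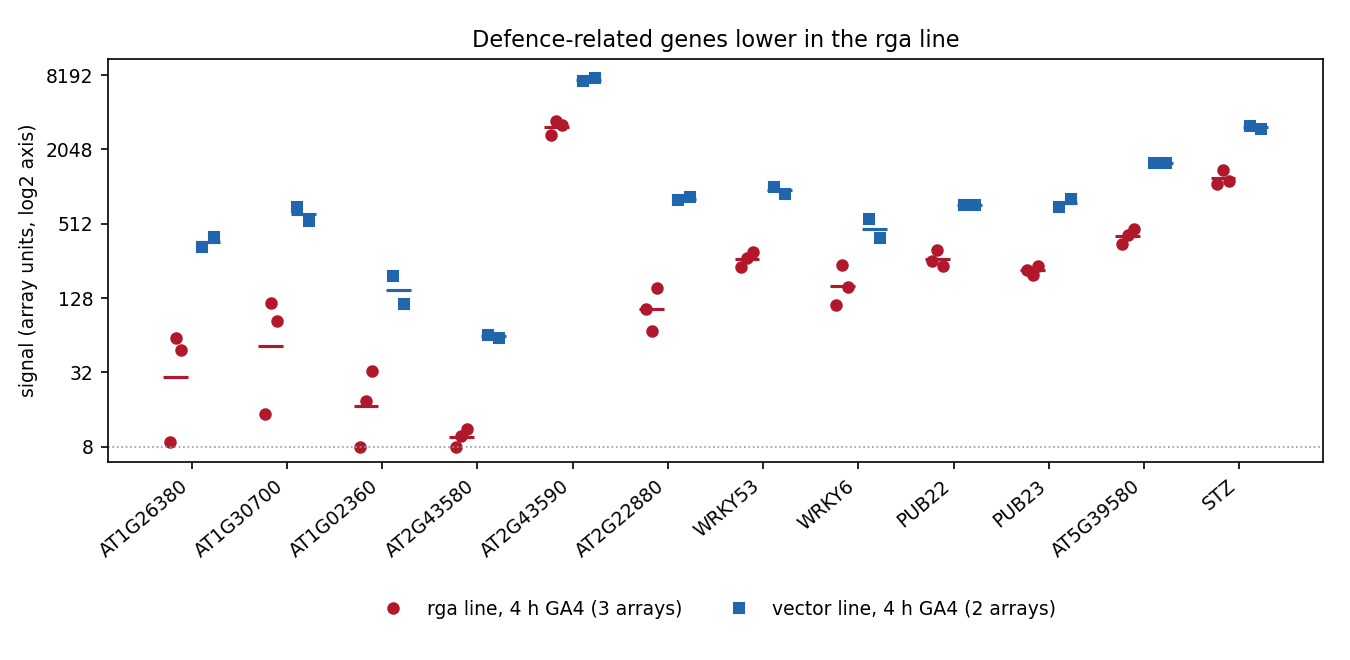
Signal of each array on a log2 axis for 12 genes that were called lower in the rga line, with red circles for the 3 rga arrays, blue squares for the 2 vector arrays, short lines for the mean of log2 signals and a dotted line at the floor of 8. In every gene the rga arrays lie below the vector arrays, as in WRKY53 (229 to 304 against 895 and 1023). This follows from the choice of genes, as it was so for all 893 lower calls. Genes that were not called, such as PUB24, or were called higher, such as PUB15, are not shown. Of the 12 genes, 5 were chosen after their values were seen.

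Chitinases and berberine bridge enzymes were grouped after their values were seen. Chitinases cut the chitin of fungal walls; of 15 listed, 10 were tested, 5 were called lower and none higher, beside 3.93% and 7.78% of all probe sets, and the median difference was -1.23, beside 0.11. The differences of the 10 ran from -3.13 to 1.65, so the family did not move 1 way. AT2G43590 was the brightest of the 5, with 2674, 3491 and 3210 units in the rga line, against 7372 and 7744 in the vector line, and was 2.43-fold lower (adjusted p = 0.00366 by limma). AT4G01700 had 355, 720 and 915 units, against 1882 and 1801, and AT3G47540 had 281, 330 and 357, against 694 and 752. AT1G02360 had 7.93, 18.8 and 32.9 units, against 193 and 116. AT2G43580 was dim in both lines, at 7.27 to 11.1 units against 63.9 and 61.0. The 5 had no overlap between the lines, as was so for all 893 lower calls. Of the 5, 4 lost the call when a single array was left out. These were AT1G02360 without the first vector array, AT4G01700 without either vector array, and AT2G43580 and AT3G47540 without either vector array or the first rga array. All 5 were also called after quantile normalization and after median centring.

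Berberine bridge enzymes are FAD-linked oxidases, some of which act on indole defence compounds or on cell wall oligosaccharides. Of 27 listed, 22 were tested; 6 were called lower and none higher, beside 3.93% and 7.78% of all probe sets, and the median difference was -0.45, beside 0.11. The differences of the 22 ran from -3.63 to 1.09. AT1G26380, an enzyme of the pathway to 4-hydroxyindole-3-carbonyl nitrile, had 8.73, 60.5 and 48.6 units in the rga line, against 335 and 399 in the vector line. AT1G30700 had 14.7, 117 and 84.2 units, against 696 and 540, a log2 difference of -3.55 (SE 0.66, adjusted p = 0.00772 by limma). In both genes the first rga array was the lowest by far, and the other rga arrays still lay well below the vector line. AT1G30760 was dim, with 5.05, 11.4 and 8.38 units against 37.8 and 40.5, and kept its call without any single array. AT4G20860 (120 to 194 units against 423 and 342), AT1G26420 (at most 123 against 293 and 275) and AT4G20830 (1544 to 2129 against 2557 and 2423) were lower by smaller amounts. AT1G26380 and AT4G20860 lost the call without the first rga array or either vector array, AT1G26420 and AT4G20830 also without the second rga array, and AT1G30700 without the first vector array. The family had 4 lower calls after quantile normalization and 8 after median centring.

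The other largest falls named by size, which are the 15 largest among called genes with no overlap, were mostly dim. CCR2, a cinnamoyl-CoA reductase of lignin and defence metabolism, had 8.99, 8.23 and 26.1 units in the rga line, against 124 and 84.7 in the vector line (log2 difference -3.04, SE 0.54, limma adjusted p = 0.00638). At 2 h under GA4 the same rga line averaged 142 ± 47.1 units (SD, n = 3), on the side of the vector line at 4 h. MYBC1, a MYB-related transcription factor, had 4.77, 12.7 and 5.51 units, against 94.0 and 105. AT4G39670 had 14.1, 164 and 103 units, against 537 and 556, and AT1G49000 had 16.4, 14.6 and 12.8, against 161 and 126. AT5G40590, which encodes a cysteine- and histidine-rich DC1-domain protein, had 83.2, 87.0 and 87.9 units, against 693 and 495. AT3G21100 was below the floor on all 3 rga arrays and had 69.5 and 54.2 units on the vector arrays, so that it was at least 7.67-fold lower; this bound sets the vector mean against the floor of 8. AT5G59070, AT5G15070, AT5G39970 and AT2G27740 completed the list, each with no rga array above 14.2 units and with vector signals between 49.3 and 87.4. Of the 15 falls, 8 had at least 1 rga array below the floor, and 11 lost the call without the first vector array.

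Brighter than these were the DC1-domain genes AT2G44370 and AT2G17740, picked out after their values were seen. AT2G44370 had 258, 569 and 546 units in the rga line, against 2532 and 2365 in the vector line, a log2 difference of -2.50 (SE 0.36, adjusted p = 0.00264 by limma), and averaged 1259 ± 332 (SD, n = 3) in the rga line at 2 h. AT2G17740 had 244, 230 and 185 units, against 1515 and 987 (-2.49, SE 0.24, limma adjusted p = 0.000449). Over the 766 lower calls in the brighter 50%, the median of the mean log2 signals was 9.27 in the rga line at 4 h and 9.98 in the vector line at 4 h, with 9.39 in the rga line at 2 h.

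Most of the tested genes of late flavonoid and anthocyanin synthesis were called higher in the rga line. Of 20 listed genes, 6 were tested; 5 were called higher and none lower, beside 7.78% and 3.93% of all probe sets, and the median difference was 1.63, beside 0.11. DFR, dihydroflavonol reductase, opens the branch to anthocyanins, and had 652, 494 and 408 units in the rga line, against 111 and 195 in the vector line (log2 difference 1.79, SE 0.24, adjusted p = 0.00183 by limma). UF3GT, which adds xylose to the sugar of anthocyanins, had 369, 289 and 231 units, against 78.3 and 55.6, and was 4.41-fold higher (adjusted p = 0.00105 by limma). AT4G14090, the anthocyanin 5-O-glucosyltransferase, had 278, 268 and 267 units, against 34.2 and 70.4, and was 5.53-fold higher (adjusted p = 0.00364 by limma). In these 3 genes every rga array was above 230 units and every vector array below 200. AT5MAT, which adds malonate, had 154, 121 and 118 units, against 40.5 and 54.6. UGT78D2, the flavonoid 3-O-glucosyltransferase, had 843, 704 and 642 units, against 488 and 518, a 1.44-fold difference. UGT78D1, which adds rhamnose to flavonols rather than anthocyanins, had 765, 746 and 981 units, against 601 and 720, and was not called (adjusted p = 0.287 by limma). AT5MAT and UGT78D2 lost the call without the first rga array or either vector array, and UGT78D2 also without the second rga array. The list had 4 higher calls after quantile normalization, 4 after median centring and 0 with only the 5 arrays compared. In the rga line at 2 h, DFR averaged 421 ± 33.9 units and UF3GT 247 ± 3.77 there (SD, n = 3 each).

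**Figure D4:**
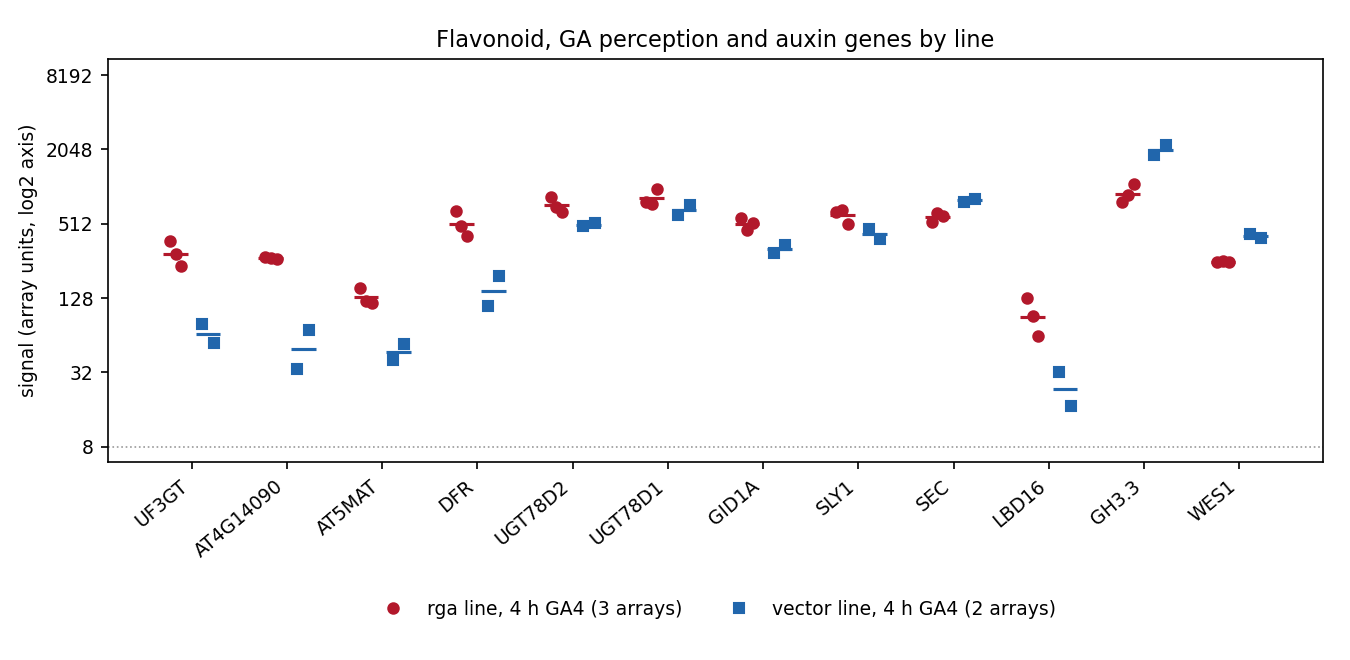
Signal of each array on a log2 axis for genes of flavonoid and anthocyanin synthesis, gibberellin perception and auxin response, with red circles for the 3 rga arrays, blue squares for the 2 vector arrays and short lines for the mean of log2 signals. DFR, UF3GT and AT4G14090 are above 230 units on every rga array and below 200 on every vector array, and UGT78D1 was not called.

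Of 12 listed genes of gibberellin perception and signalling, 7 were tested, 2 were called higher and 1 lower, beside 7.78% and 3.93% of all probe sets, and the median difference was 0.32, beside 0.11. The 3 called genes differed by less than 2-fold. GID1A, a gibberellin receptor, had 574, 453 and 518 units in the rga line, against 294 and 344 in the vector line; it was 1.61-fold higher (log2 difference 0.69, SE 0.13, adjusted p = 0.00735 by limma), and the call was lost without the first vector array. GID1C had 145 to 165 units, against 127 and 119, and GID1B had 176 to 260 units, against 259 and 270; neither was called, and the GID1B groups overlapped. SLY1, the F-box protein that targets DELLAs, had 635, 663 and 507 units, against 468 and 385 (log2 difference 0.49, SE 0.13, limma adjusted p = 0.030), and the call was lost without the first or second rga array or the second vector array. SEC, an O-GlcNAc transferase that modifies DELLAs, had 529, 624 and 592 units, against 772 and 813 (-0.45, SE 0.13, limma adjusted p = 0.0389), and its call was lost without any 1 of the 5 arrays. SPY, an O-fucosyltransferase of the same class, had 540 to 613 units, against 480 and 482, and was not called. SLY2 was not called either, with a difference of 0.36.

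Putative DELLA targets, a list which the study chose on these samples and which is therefore no independent evidence of direction, had 6 of 13 genes tested, 2 called higher and none lower, with a median of 0.22. They were GID1A and AT5G50915, a bHLH gene with 174, 173 and 144 units in the rga line, against 96.9 and 72.7 in the vector line (log2 difference 0.96, SE 0.19, limma adjusted p = 0.0109; call lost without the second vector array). XERICO, a RING-type gene tied to abscisic acid, had 205 to 272 units, against 194 and 189, and IQD22 had 182 to 254 units, against 184 and 191; neither was called. A wider set comes from the rga line's own response to 2 h of DEX, measured on 6 other arrays of the same fit: 444 probe sets were higher with DEX (1.95%) and 139 were lower (0.611%). Of the 444, 40 were higher in the uninduced rga line than in the vector line (9.01%) and 57 were lower (12.8%), with a median difference of -0.03, beside 7.78% and 3.93% and a median of 0.11 over all probe sets. These response genes were bright: among the 374 of them in the brighter 50%, 9.36% were higher and 14.7% lower, beside 7.46% and 6.74% of all probe sets there. Of the 139 that DEX lowered, 15 were higher (10.8%) and 26 lower (18.7%). Among the 120 of these in the brighter 50%, 10% were higher and 20% lower, beside the same 7.46% and 6.74%.

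Gibberellin-regulated and growth-related families had single calls, and their counts are to be read against the 7.78% of all probe sets called higher and the 3.93% called lower. Of 6 tested GASA genes, 1 was called higher and 1 lower, with a median of 0.29. AT2G39540 had 146, 102 and 114 units in the rga line, against 36.8 and 49.7 in the vector line (log2 difference 1.48, SE 0.29, limma adjusted p = 0.00863), and AT2G14900 had 562, 772 and 737, against 1183 and 1266 (-0.84, SE 0.21, limma adjusted p = 0.0249). Expansins loosen cell walls; of 19 listed, 12 were tested and 1 was called, EXPA9, with 289, 243 and 245 units against 169 and 129 (log2 difference 0.81, limma adjusted p = 0.0187), and the list's median was 0.34. Of 7 tested xyloglucan-modifying XTH genes, XTH32 was called higher, by 1.25-fold, and the median was 0.01. AT2G39540 lost the call without the first vector array, AT2G14900 without the first rga array or either vector array, EXPA9 without the first rga array or the second vector array, and XTH32 without any of the rga arrays or the first vector array.

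Of 6 tested auxin-response genes, 1 was higher and 2 were lower, beside 7.78% and 3.93% of all probe sets. The median difference was -0.34, beside 0.11. LBD16, a transcription factor of lateral root formation, had 128, 90.8 and 63.4 units in the rga line, against 31.9 and 17.2 in the vector line, 3.86-fold higher (adjusted p = 0.00406 by limma). GH3.3, which joins auxin to amino acids, had 764, 872 and 1082 units, against 1854 and 2218, 2.26-fold lower (adjusted p = 0.00448 by limma). WES1, another GH3 enzyme, had 252, 253 and 250 units, against 421 and 396 (log2 difference -0.70, limma adjusted p = 0.0307), and its call was lost without any 1 of the 5 arrays. IAA29 had 24.5 to 37.6 units, against 65.2 and 76.9, with no overlap and no call.

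Short lists gave few calls. COR15B, a chloroplast protein made in the cold, had 218, 181 and 151 units in the rga line, against 49.2 and 67.9 in the vector line (log2 difference 1.65, SE 0.41, limma adjusted p = 0.0246), the only call among 3 tested genes of cold, drought and abscisic acid response (median 1.44). PYE, a bHLH regulator of the iron-deficiency response, had 497, 322 and 326 units, against 207 and 154 (1.07, SE 0.22, limma adjusted p = 0.0117), 1 of 2 tested iron genes (median 0.37). ATHSP22.0, a small heat shock protein, had 88.1, 79.9 and 94.7 units, against 21.2 and 4.96, and was the single heat shock gene tested. EIN3, the central transcription factor of ethylene signalling and the single ethylene gene tested, had 1059, 1047 and 1061 units, against 1442 and 1403, and was 1.35-fold lower (adjusted p = 0.032 by limma). COR15B lost the call without the first or second rga array or either vector array, PYE without the second vector array, and ATHSP22.0 and EIN3 without any 1 of the 5 arrays. The lists for cytokinin (2 tested), clock (GI, difference -0.05), light harvesting and Rubisco (2), glucosinolates (2), sulfur (1), flowering (1), sugar starvation (2), cell cycle (1), and epidermis and trichome (4) gave no call in either direction. Their medians were -0.23, -0.05, -0.13, 0.09, 0.62, 1.35, -0.24, -0.40 and 0.48 in that order. Over all 31 lists, 80 of 417 listed genes were tested, 15 were called higher and 7 lower (18.8% and 8.75%, beside 7.78% and 3.93% of all probe sets), and 7 lists had no member tested here. The lists were written with earlier results of these data known, so these are not like shares. After quantile normalization SEC, AT5G50915, AT2G39540, EXPA9, EIN3, COR15B, ATHSP22.0 and AT5MAT were no longer called, and after median centring SLY1, XTH32 and UGT78D2 were not; each kept its sign.

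The 15 largest rises named by size were all dim. EXPB2, a beta-expansin, had 78.6, 153 and 102 units in the rga line, against 9.53 and 7.11 in the vector line (log2 difference 3.61, SE 0.35, adjusted p = 0.000453 by limma). In the rga line at 2 h it averaged 104 ± 25.7 units (SD, n = 3). AT5G43800 had 76.4, 104 and 52.5 units, against 6.05 and 7.63, both under the floor, so that it was at least 9.32-fold higher. AT1G06320 was at least 10.1-fold higher by the same bound, with 138, 60.3 and 63.0 units against 3.01 and 6.34, AT2G14130 at least 11.6-fold, AT5G12460 at least 9.52-fold and AT2G34990 at least 8.15-fold. AT5G28600, AT4G04120, AT1G43760, AT1G78740, AT3G56670, AT1G24430, AT2G14290, AT1G09510 and AT4G04660 completed the 15. Over all 15, the rga signals ran from 28.4 to 203 units and the vector signals from 2.01 to 27.8, and 14 had at least 1 vector array below the floor. Of the 15, 8 lost the call without the second vector array. The annotation lists AT5G28600, AT2G14130, AT4G04120, AT5G43800 and AT4G04660 as pseudogenes, the last of them as transcribed. Over the whole array, 6.83% of 923 pseudogenes and 9.09% of 66 transcribed pseudogenes were called higher, beside 8.10% of protein-coding genes.

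Brighter rises were picked out after their values were seen. TBL26, of a family of wall polysaccharide acetyltransferases, had 1120, 776 and 778 units in the rga line, against 286 and 332 in the vector line (log2 difference 1.51, SE 0.17, limma adjusted p = 0.000891). AT2G29370, a short-chain dehydrogenase, had 326, 262 and 219 units, against 91.2 and 94.9 (1.51, SE 0.18, limma adjusted p = 0.00109). LEP, an AP2-type transcription factor of leaf shape, had 314, 351 and 244 units, against 129 and 116, 2.45-fold higher (adjusted p = 0.00122 by limma). None of the 3 lost the call when any single array was left out. SWEET genes encode sugar transporters; of 14 probe sets with that symbol, 3 were called higher and none lower, beside 7.78% and 3.93% of all probe sets; after median centring 2 were higher, beside 4.58%. SWEET1 had 1581, 1398 and 1499 units, against 967 and 1075 (log2 difference 0.55), SWEET13 had 240, 206 and 138 against 91.5 and 66.9 (1.28), and SWEET9 had 96.5, 84.2 and 46.1 against 17.8 and 22.5 (1.85). Each of the 3 lost the call without at least 1 vector array, and SWEET1 also without the first rga array. SAG29, the sugar transporter also known as SWEET15, had 498, 461 and 278 units, against 138 and 189, and was 2.47-fold higher (adjusted p = 0.0181 by limma); its call was lost without the first or second rga array or either vector array. Among 69 plastid-encoded probe sets the median was 0.21, and 7 were called higher and 1 lower, beside 7.78% and 3.93% of all probe sets. After quantile normalization 5 were higher and none lower, and after median centring 2 were higher and 2 lower. On the deposited scale psbT, a photosystem II subunit, was 1.74-fold higher and psbN, an assembly factor of that complex, 2.03-fold lower.

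How many calls there were depended on how the spread was estimated. With only the 5 arrays compared, and 3 residual degrees of freedom in place of 10, 31 probe sets were higher (0.136%) and 52 were lower (0.229%), with adjusted p-values of 0.0468 to 0.0497; at an unadjusted p below 0.05 there were 3785 and 1934. Of the genes named by size, no rise and 5 of 15 falls kept the call there, and none of the 5 flavonoid genes did. Single arrays moved the counts too: the count of higher calls was 477 without the second vector array, 756 without the first, 781 without the first rga array and 1021 without the second, and the count of lower calls was 336, 345, 496 and 638 in the same order. The third rga array did not act this way, at 1856 and 958 without it. Across 18 settings, which leave out the 5-array fit with a replicate term, 10 probe sets stayed higher and 20 stayed lower. With a single named gene, 4 were higher and 11 lower. The lower ones were AT5G39580, PUB23, AT5G12420, AT5G03700, AT3G50900, AT5G53110, AT3G57450, AT2G41250, BIK1, PPDK and AT5G54870, and the higher ones AT5G15320, AT5G16380, AT3G01130 and AT1G23205. PPDK, pyruvate orthophosphate dikinase, had 1841, 1945 and 1902 units in the rga line, against 2923 and 2848 in the vector line, 1.52-fold lower (adjusted p = 0.00443 by limma).

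The same 2 lines were also compared on 5 other arrays, at 4 h under GA4 plus DEX, where the construct is induced by design. There 6907 probe sets were higher in the rga line (30.4%) and 3143 lower (13.8%). Of the 1770 probe sets higher without DEX, 1189 were also higher with DEX (67.2%) and 84 were lower. Of the 893 lower without DEX, 567 were also lower with it (63.5%) and 94 were higher. The shared calls were 17.2% of all higher calls and 18.0% of all lower calls with DEX. As without DEX, the 10th percentile of signal was lower on the vector arrays (4.52 and 4.49 units) than on the rga arrays (10.2, 8.67 and 7.50). The part of this in the shared calls was not tested. No array enters both comparisons, although the estimate of the spread is common to them, and the vector arrays with DEX stood apart from the other 14, at correlations of 0.863 to 0.919 beside 0.934 to 0.974 among those. The control probe set for 25S ribosomal RNA read 12528 and 13088 units on them, against 391 to 2046 on the other 14, and the part of this in the 6907 and 3143 calls was not tested. With them out of the fit, the comparison without DEX gave 1765 higher and 856 lower. All 6 tested flavonoid genes were higher with DEX, and their median difference was 2.56. Of the 15 largest rises, 9 were also higher with DEX, and of the 15 largest falls, 10 were also lower. The difference between the lines without DEX minus that with DEX was itself called for 5019 probe sets (22.1%). LBD16 and GH3.3 had opposite signs under it: LBD16 was 1.95 without DEX and -2.93 with it, and GH3.3 was -1.18 and 1.55, on the log2 scale.

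**Figure D5:**
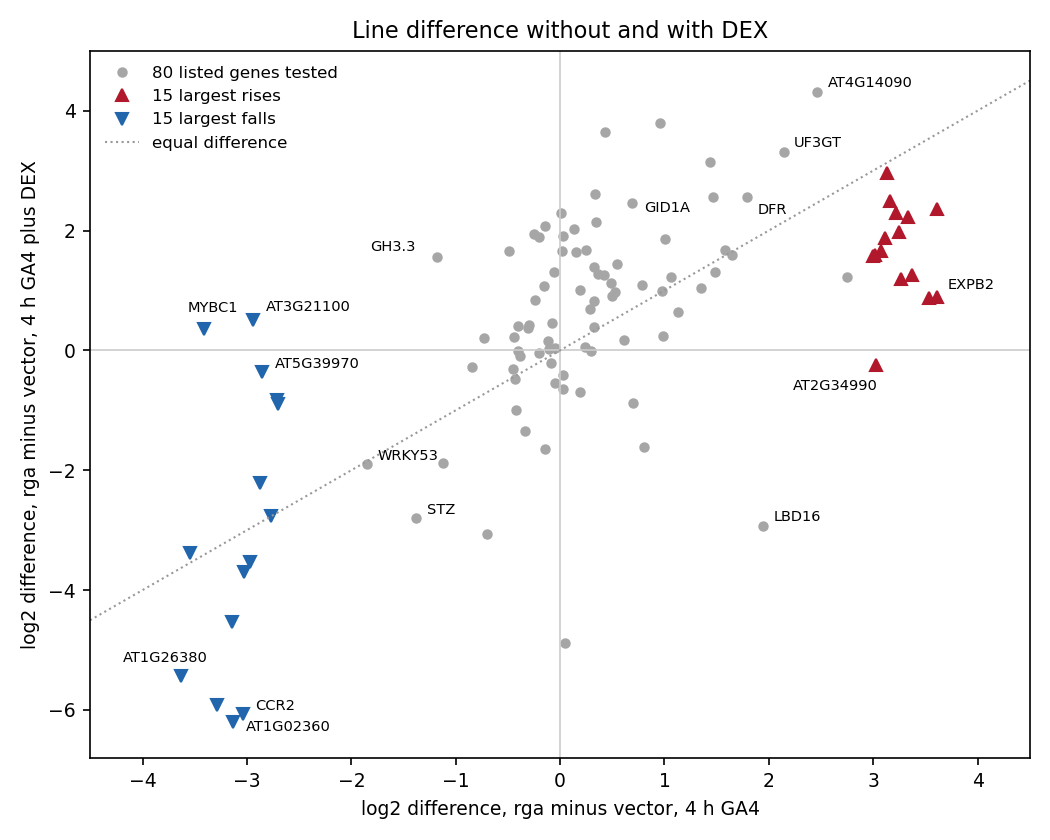
Each point is a gene, placed by its log2 difference (rga minus vector) at 4 h under GA4 on the x axis and under GA4 plus DEX on the y axis; grey points are the 80 listed genes tested, red and blue triangles the 15 largest rises and falls without DEX, and the dotted line marks equal differences. Among the triangles 9 rises and 10 falls were called in the same direction with DEX, while MYBC1 and AT3G21100 lie at 0.36 and 0.51 there, and LBD16 at -2.93.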

How the data were processed

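Total RNA from shoots was hybridised to Affymetrix ATH1 arrays, 1 per sample. The deposited values are linear signal intensities; the submitters' processing notes name MAS5, whose version is not given in the sources used here. The values were floored at 8 and log2-transformed. limma 3.58.1 in R 4.3.3 fitted 6 group means to all 16 arrays (lmFit, eBayes with trend, 10 residual degrees of freedom), with Benjamini-Hochberg adjustment over 22746 probe sets, 64 AFFX controls left out. Contrasts were the line difference without and with DEX, their difference, and the 2 h DEX response. Of the probe sets, 13513 have 1 gene in the platform annotation given, 503 several and 8730 none, and 13436 were matched to a RefSeq locus; a gene with no named probe set was not analysed here. Named genes were the 15 largest rises and falls among called, non-overlapping probe sets with 1 gene, and up to 4 members of each of 31 lists with the smallest p; further list members (in the gibberellin, DELLA target, flavonoid, chitinase and berberine bridge enzyme lists) were named outside the rule, after their values were seen; a list uses a gene's brightest probe set. Members and lists were chosen with earlier results of these data known, and 2 lists (chitinases, berberine bridge enzymes) were added after values were seen, as were the genes marked so. The fit was also run on simulated data with independent normal noise and added changes. Those data held no shift common to an array or a line, so that run cannot speak to such shifts. Alternatives were floors of 32 and 100, log2(signal + 16), filters on dim probe sets, 2 normalizations, other arrays in the fit, no trend, array weights, a replicate term, fold thresholds and leaving out each array. One array per sample and 2 or 3 arrays per group limit the precision. Detection calls were not used.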

Additional observations from a re-analysis of the deposited data

Results flagged for a closer look

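For 26 of the 93 genes named by size or from the lists, the 2 lists added later included (28.0%), the line difference at 4 h under GA4 minus that under GA4 plus DEX passed an adjusted p of 0.05 in limma, beside 22.1% of all probe sets. Many of the 93 were chosen by their difference without DEX, which is a term of this measure, so 28.0% and 22.1% are not like shares. Values are log2 differences of differences. Among the largest rises those that passed were EXPB2 (2.73) and AT2G34990 (3.26). Among the largest falls they were MYBC1 (-3.77), AT3G21100 (-3.45) and AT5G39970 (-2.49), which were lower in the rga line without DEX and not called with it, and AT1G02360 (3.07) and CCR2 (3.02), which were lower in both. In the lists the difference was -1.76 for GID1A, -2.83 for AT5G50915, -1.42 for XERICO, 2.43 for EXPA9, -1.80 for EXPA15 and -3.22 for XTH33. It was 4.87 for LBD16, -2.73 for GH3.3 and 2.37 for WES1, which were called without DEX. It was -1.64 for RR16, 0.50 for GI, 4.93 for CML37, -2.10 for LHCB4.2, -1.49 for BCAT4 and -1.88 for AOP3, which were not called without DEX. It was 1.42 for STZ, -1.18 for UF3GT, -1.85 for AT4G14090 and -2.10 for AT1G30760.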

How the results depend on the processing

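Against 1770 higher and 893 lower calls in the rga line without DEX, the higher count was 975 without the dimmest 50%, 927 after quantile normalization, 1042 after median centring (with 1890 lower), 31 with only the 5 arrays compared (52 lower) and 856 at a threshold of 2-fold (257 lower); 1.5-fold left 535 lower. Added after seeing the data, a floor of 100 gave 850 higher, and leaving out the vector DEX and rga 2 h arrays gave 987 higher and 570 lower. Leaving out each array gave 477 to 1856 higher and 336 to 958 lower; with DEX it gave 5065 to 6650 higher and 2317 to 2954 lower. With DEX the higher count was 4589 without the dimmest 50% and 3593 after median centring (5799 lower), and 3769 higher and 1485 lower at 2-fold. The labels give the lines the same replicate numbers. Over all probe sets, deviations of same-numbered arrays from their group means correlated at 0.006 and -0.002 without DEX, and at -0.039 and -0.016 with it. Deviations of 2 vector arrays mirror each other, so these values cannot exclude a pairing. With a replicate block, the fit of all arrays called 1818 higher and 1001 lower without DEX. The blocked fit of the 5 arrays called 0 in both comparisons. There limma left 2805 higher and 1513 lower at an unadjusted p below 0.05 without DEX and 5693 and 2917 with it. Among 1701 repeats over single named genes, 1424 kept the direction and the side of the threshold, 269 lost the call and 8 gained it. The 1424 include genes that were not called in the main fit and stayed so. In the blocked fit of the 5 arrays, which called 0, 38 genes counted as kept and 55 lost the call. No gene turned its sign where it was called. The cause of these changes was not tested. Signals below 8, up to 13.7% of an array, limit what can be said of dim genes.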
